A study of Mus musculus with 20 samples.

Results

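Tetrahydrobiopterin (BH4) is the pteridine cofactor of the aromatic amino acid hydroxylases, the nitric oxide synthases and alkylglycerol monooxygenase. GTP cyclohydrolase, encoded by Gch1, makes the committed step from GTP, and the products of Pts and Spr complete the synthesis. Qdpr encodes the reductase that regenerates BH4 after use. The protein of Gchfr, the GTP cyclohydrolase feedback regulator, binds the enzyme, and through it BH4 inhibits and phenylalanine stimulates the first step. Gch1 is inducible by inflammatory cytokines in many cell types, among them macrophages.

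These 5 genes were taken by symbol from a table of 18722 genes, and all 5 were present. The table held RNA-seq values of 20 libraries of tumours grown from U14 cells, a cervical cancer line of the mouse. The groups had 5 libraries each. Combination tumours received both Plerixafor and anti-PD-1. Plerixafor, which blocks the chemokine receptor CXCR4, was given alone to the Plerixafor tumours. Anti-PD-1 tumours received only the antibody to PD-1, an inhibitory receptor of T cells, and Solution tumours received the solution alone. Dose, schedule, host strain, sex and age are not given in the sources used here, and no source says that the libraries of a group are separate animals, so the p-values measure only the spread between these libraries. Gchfr was chosen because it was among the largest rises under Plerixafor against Solution, and the enzymes were joined to it with results of the same table known. Comparisons of an antagonist group with an antagonist-free group are therefore given for these 5 genes as a description, with no test.

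Values are FPKM, fragments scaled to gene length and library size, which can be compared between genes. The recovered depth was 16565802 to 19833872 reads per library. Genes with at least 1 FPKM in at least 5 libraries were tested, 12687 in all. All 5 passed that filter, Gchfr only through the Combination and Plerixafor libraries, where it was high. Fold changes were fitted on log2(FPKM + 1) by limma and are given with their standard error (SE). The antagonist libraries differed from the others in most genes: 76.1% of tested genes were called between Combination and Solution, 75.5% between Plerixafor and Solution, and 74.6% between Combination and anti-PD-1. Macrophage markers (8 of 8 in the table) summed to 449 to 1439.6 FPKM in Combination, 676 to 2273 in Plerixafor, 666 to 4367 in anti-PD-1 and 4271 to 6109 in Solution libraries. Fibroblast markers (8 of 8) summed to 387 to 1474, 496 to 1944, 1751 to 8089 and 5385 to 8565 FPKM in the same order of groups, and proliferation genes (8 of 8) to 463 to 567, 316 to 593, 13.4 to 90.8 and 35.0 to 49.2 FPKM. Epithelial markers (8 of 8), which bear on the cervical cancer label, summed to 784 to 1156 FPKM in Combination, 749 to 1069 in Plerixafor, 9.52 to 229 in anti-PD-1 and 115 to 969 in Solution libraries. Most members of that list did not follow its sum: against Solution, 2 of 8 were higher and 5 lower in Combination (median log2 fold change -2.24), and 2 of 8 higher and 5 lower in Plerixafor (median -2.52). No marker on these lists was at 0 throughout a group. The part of this difference in make-up in the values below was not tested. In bulk tumour RNA, fewer cells of a type and less RNA per cell cannot be told apart.

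The 250 bases before the annotated start are shown for Gchfr and Gch1, the genes with the largest differences between the groups, and for Pts, which differed the other way. They come from the RefSeq promoter table of GRCm38.p6, matched by symbol (5 of 5 matched), whereas the expression table was made on GRCm39. All are on the coding strand, 5′ to 3′, and capitals mark matches on either strand to 5 motifs: the CCAAT box, the GC box core GGGCGG, the TATA box in the form TATAAA, the core TGACG of CREB-type sites, and the STAT-type motif TTCNNNGAA.
Gchfr, chr2:119167538-119167787, plus strand: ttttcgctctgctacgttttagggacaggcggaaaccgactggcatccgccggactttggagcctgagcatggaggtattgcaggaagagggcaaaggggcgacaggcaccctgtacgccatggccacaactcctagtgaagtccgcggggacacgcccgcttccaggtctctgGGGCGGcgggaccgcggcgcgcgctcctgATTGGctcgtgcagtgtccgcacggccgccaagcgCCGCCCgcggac
Gch1, chr14:47189414-47189663, minus strand: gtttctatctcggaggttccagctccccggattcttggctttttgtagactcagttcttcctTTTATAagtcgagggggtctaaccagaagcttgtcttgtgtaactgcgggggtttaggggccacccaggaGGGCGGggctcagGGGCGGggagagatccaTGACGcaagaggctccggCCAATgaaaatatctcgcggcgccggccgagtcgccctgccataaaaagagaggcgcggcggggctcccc
Pts, chr9:50528657-50528906, minus strand: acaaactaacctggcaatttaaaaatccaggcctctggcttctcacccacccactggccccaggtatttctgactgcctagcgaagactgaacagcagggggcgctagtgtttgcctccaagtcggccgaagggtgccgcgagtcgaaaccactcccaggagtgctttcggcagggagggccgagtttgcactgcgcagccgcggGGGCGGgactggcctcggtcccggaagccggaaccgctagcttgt
The Gchfr window held 27 CpG dinucleotides, and 8.56% of the 32851 promoter windows searched held at least as many. The windows of Gch1 and Pts held 17 each, a number reached by 23.5% of windows. Those of Spr and Qdpr, which are not printed, held 14 and 21. GGGCGG was found 2 times in Gchfr, 2 times in Gch1 and 1 time in Pts, and occurs in 32.7% of all windows. CCAAT was found 1 time in Gchfr and 1 time in Gch1, and not in Pts; 33.8% of all windows have it. TATAAA was found in Gch1 (12.4% of windows have it), TGACG in Gch1 (17.8%), and TTCNNNGAA in none of the windows of the 5 genes (7.02%). No matches overlapped in the printed windows. A match is a run of letters, not a known binding site.

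Gchfr, the feedback regulator, was low in antagonist-free tumours and abundant in every antagonist-treated tumour. The Combination libraries 1 to 5 had 103, 113, 110.4, 139 and 117 FPKM. The Plerixafor libraries had 107, 115, 95.5, 122 and 57.1 FPKM. The anti-PD-1 libraries had 0.768, 1.25, 0.901, 9.06 and 1.42 FPKM, and the Solution libraries 1.37, 0.946, 0.168, 0.401 and 0.572 FPKM. The lowest antagonist-treated library, Plerixafor library 5, stood above the highest antagonist-free library, anti-PD-1 library 4. In reads, the Combination libraries held 1124 to 1625, the Plerixafor libraries 625 to 1357, the anti-PD-1 libraries 8 to 113 and the Solution libraries 2 to 16, so the low values carry a large counting error. Group means were 116.6 ± 13.7 FPKM in Combination, 99.4 ± 25.6 in Plerixafor, 2.68 ± 3.58 in anti-PD-1 and 0.691 ± 0.474 in Solution (SD, n = 5 each). The log2 fold change was 6.16 (SE 0.36) for Combination against Solution, 5.89 (SE 0.36) for Plerixafor against Solution and 5.37 (SE 0.36) for Combination against anti-PD-1. The pseudocount of 1 holds these values down for a gene this low in the controls: by limma-voom on the recovered reads they were 7.59, 7.32 and 6.07. The ratio of mean FPKM was 169 for Combination to Solution and 144 for Plerixafor to Solution. Combination and Plerixafor overlapped, as did anti-PD-1 and Solution.

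**Figure D1:**
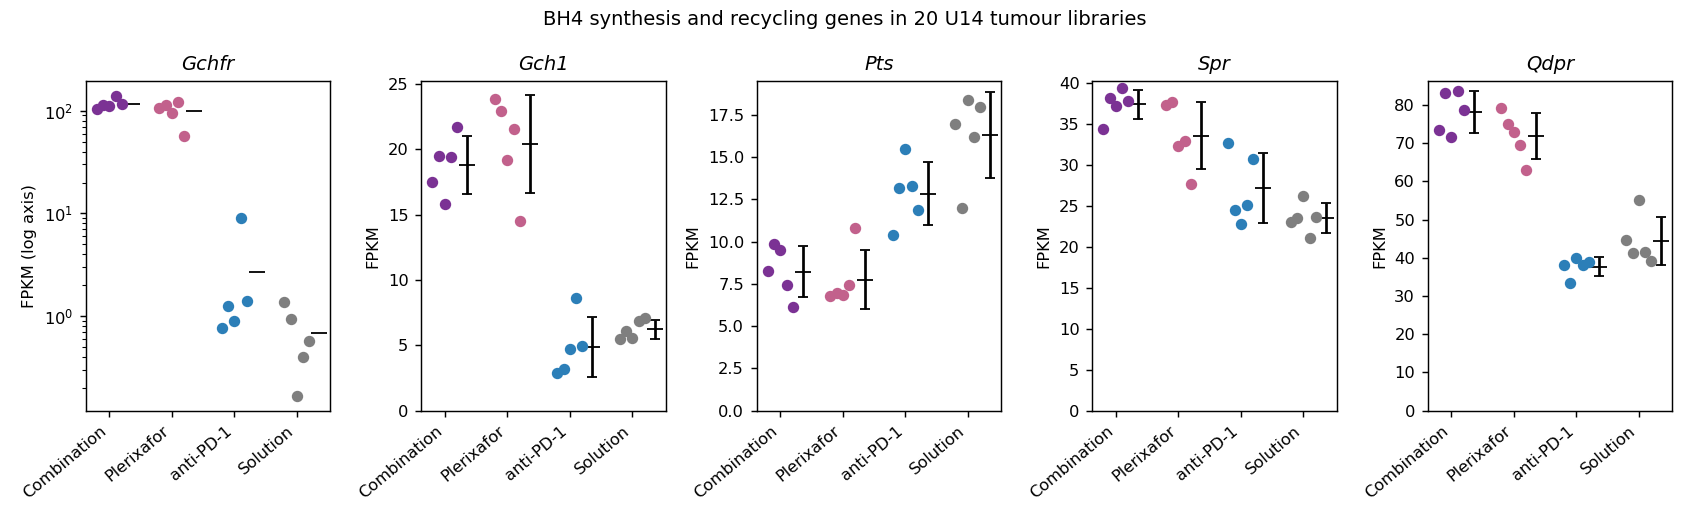
FPKM of Gchfr (log axis), Gch1, Pts, Spr and Qdpr (linear axes from 0) in each of the 20 libraries by group, 1 point per library, with the group mean as a dash and, on the linear axes, its SD as a bar (n = 5). Gchfr lay at 57.1 FPKM or above in all antagonist-treated libraries and at 9.06 or below in the others, and Pts was the gene that was lower under the antagonist.

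Gch1, the rate-limiting enzyme that Gchfr regulates, was also higher in the antagonist-treated tumours, by a smaller factor. It had 17.5, 19.5, 15.8, 19.4 and 21.7 FPKM in the Combination libraries and 23.8, 22.9, 19.2, 21.5 and 14.5 in the Plerixafor libraries. The anti-PD-1 libraries had 2.87, 3.19, 4.74, 8.59 and 4.94 FPKM, and the Solution libraries 5.49, 6.06, 5.56, 6.85 and 7.05. All 10 antagonist-treated libraries were above all 10 antagonist-free ones, and anti-PD-1 library 4 was again the highest of its group. Group means were 18.8 ± 2.21 FPKM in Combination, 20.4 ± 3.74 in Plerixafor, 4.87 ± 2.27 in anti-PD-1 and 6.21 ± 0.722 in Solution (SD, n = 5 each). The ratio of means was 3.03 for Combination to Solution and 3.29 for Plerixafor to Solution, and the log2 fold changes were 1.46 (SE 0.19) and 1.56 (SE 0.19). Against anti-PD-1, Combination differed by 1.83 (SE 0.19) on the log2 scale.

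Pts, which encodes the synthase of the second step, went the other way. Its level was 8.24, 9.83, 9.48, 7.44 and 6.11 FPKM in the Combination libraries and 6.79, 6.93, 6.82, 7.41 and 10.8 in the Plerixafor libraries. The anti-PD-1 libraries had 10.4, 13.2, 15.5, 13.3 and 11.9 FPKM and the Solution libraries 17.0, 12.0, 18.4, 16.2 and 18.0. Plerixafor library 5, at 10.8, reached into the anti-PD-1 range, whereas no antagonist-treated library reached the Solution range. The means were 8.22 ± 1.52 FPKM in Combination, 7.75 ± 1.73 in Plerixafor, 12.8 ± 1.87 in anti-PD-1 and 16.3 ± 2.56 in Solution (SD, n = 5 each). The log2 fold change was -0.91 (SE 0.15) for Combination against Solution, -0.99 (SE 0.15) for Plerixafor against Solution and -0.59 (SE 0.15) for Combination against anti-PD-1.

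Spr, whose product sepiapterin reductase makes the last step, differed least. It had 34.5, 38.2, 37.2, 39.4 and 37.8 FPKM in the Combination libraries and 37.3, 37.7, 32.3, 33.0 and 27.7 in the Plerixafor libraries. The anti-PD-1 libraries had 32.7, 24.5, 22.8, 25.1 and 30.8 FPKM and the Solution libraries 23.1, 23.5, 26.3, 21.2 and 23.7. Both antagonist groups were above Solution in every library, but Plerixafor overlapped anti-PD-1. The means were 37.4 ± 1.82 FPKM in Combination, 33.6 ± 4.10 in Plerixafor, 27.2 ± 4.31 in anti-PD-1 and 23.5 ± 1.83 in Solution (SD, n = 5 each), and the log2 fold changes were 0.65 (SE 0.10) for Combination and 0.49 (SE 0.10) for Plerixafor, each against Solution. For Combination against anti-PD-1 it was 0.46 (SE 0.10), and 0.27 after median-of-ratios scaling, which lowered the median of all tested genes in that comparison to -0.01, against 0.15 without it. The reference lists a Spr pseudogene, Spr-ps1, near Spr, with which it could share reads.

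Qdpr, the recycling reductase, was the most abundant of the enzymes in every group. The Combination libraries had 73.4, 83.2, 71.6, 83.8 and 78.8 FPKM and the Plerixafor libraries 79.2, 75.0, 72.9, 69.7 and 63.0. The anti-PD-1 libraries had 38.0, 33.5, 40.1, 38.0 and 38.9 FPKM and the Solution libraries 44.7, 41.2, 55.0, 41.6 and 39.3. The lowest antagonist-treated library was above the highest antagonist-free library. The means were 78.2 ± 5.55 FPKM in Combination, 71.9 ± 6.08 in Plerixafor, 37.7 ± 2.504 in anti-PD-1 and 44.4 ± 6.28 in Solution (SD, n = 5 each). The log2 fold change was 0.81 (SE 0.09) for Combination against Solution, 0.69 (SE 0.09) for Plerixafor against Solution and 1.03 (SE 0.09) for Combination against anti-PD-1.

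Of the 5 genes, 4 were thus higher and 1 lower without overlap in Combination against Solution, and the same split held for Plerixafor against Solution and Combination against anti-PD-1. Of all tested genes, 42.1% were higher and 33% lower without overlap in Combination against Solution, 41.5% and 29.1% in Plerixafor against Solution, and 37.9% and 15.8% in Combination against anti-PD-1. Since these comparisons chose the genes and share libraries, nothing is read from the counts.

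**Figure D2:**
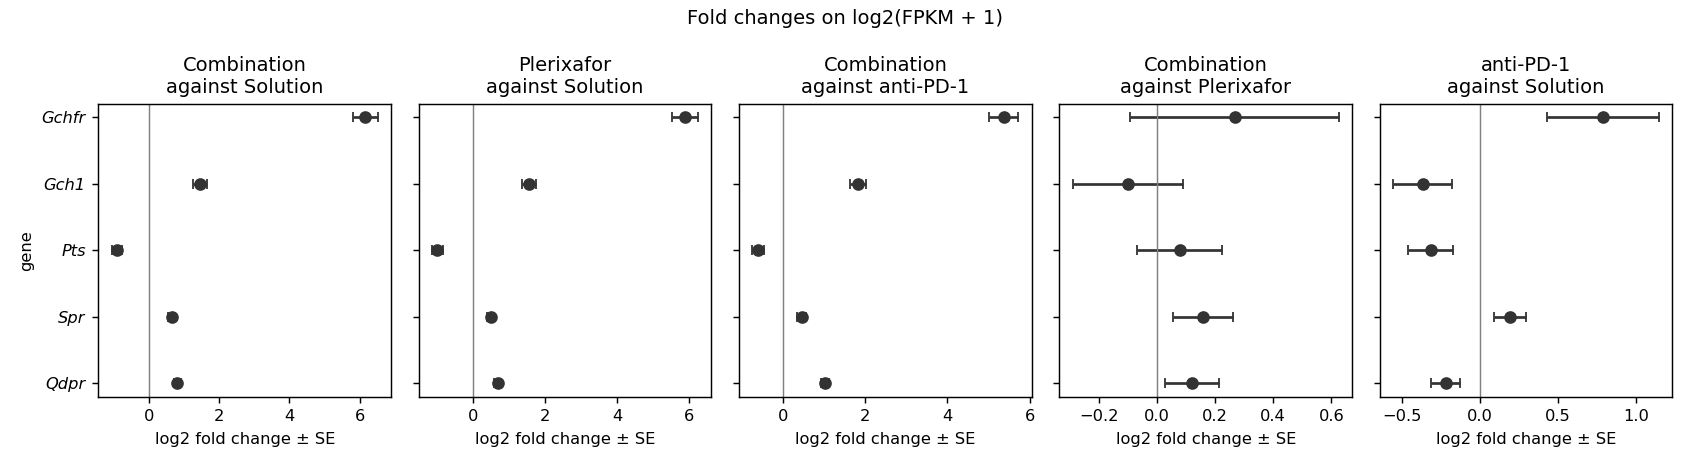
Fold changes of the 5 genes on the log2(FPKM + 1) scale (x axis, a different range in each panel) with their SE as bars, 1 panel per comparison. The antagonist comparisons reach 6.16 for Gchfr, while Combination against Plerixafor and anti-PD-1 against Solution stay below 1.

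The comparisons of the antibody's effect, with and without the antagonist, did not choose the genes and were tested, although the Plerixafor and Solution values of Gchfr entered its choice and are used in them again. By limma with Benjamini-Hochberg adjustment over all genes, 0 of the 5 genes were called at 0.05 in Combination against Plerixafor, and 0% of all tested genes were (60 of them at an unadjusted p under 0.05, and 0 by limma-voom). The log2 fold changes were 0.27 for Gchfr (95% interval -0.49 to 1.03), -0.10 for Gch1 (-0.50 to 0.30), 0.08 for Pts (-0.23 to 0.39), 0.16 for Spr (-0.06 to 0.38) and 0.12 for Qdpr (-0.08 to 0.32), each with a limma adjusted p of 0.9999. The groups overlapped for all 5, and over all tested genes 0.158% were higher and 0.252% lower without overlap.

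Anti-PD-1 alone also gave 0 calls among the 5 genes against Solution, where 11.5% of all tested genes were called (4329 at an unadjusted p under 0.05, and 767 by limma-voom). Gchfr had a log2 fold change of 0.79 (SE 0.36, limma adjusted p = 0.132), and its value of 9.06 FPKM in anti-PD-1 library 4 was the highest of the group. Leaving that library out made the fold change 0.33. Gch1 was at -0.37 (SE 0.19, limma adjusted p = 0.174). With the same library left out the value became -0.57 and was called (limma adjusted p = 0.0121). In that setting 4112 of the 12687 tested genes were called, against 1454 with every library. Without anti-PD-1 libraries 1, 2 and 5, a setting chosen after seeing the data, Gch1 was at 0.048. Pts was at -0.32 (limma adjusted p = 0.136), Spr at 0.19 (limma adjusted p = 0.188) and Qdpr at -0.22 (limma adjusted p = 0.1104). At an unadjusted p under 0.05 there were 3 of the 5, Gchfr, Pts and Qdpr, and 4329 of the 12687 tested genes. Low Solution values of Gchfr favoured its choice, so nothing is read from its p or from this count. The groups overlapped for all 5, where 2.89% of tested genes were higher and 2.8% lower without overlap. Skeletal muscle RNA moved with this group, since a list of 8 muscle genes, 8 of 8 called as higher, held 18.5, 5.46, 2.27, 0.0328 and 6.27% of the summed FPKM of the anti-PD-1 libraries 1 to 5. Over the anti-PD-1 and Solution libraries together, Gch1 was lower where muscle markers were higher (correlation r = -0.78, adjusted permutation p = 0.0275). Gchfr, Pts, Spr and Qdpr did not pass with these markers. That relation mixes the 2 groups, and the part of muscle RNA in these fold changes was not tested. The interaction, which asks whether the antibody's effect differed when the antagonist was also given, was called for 0 of the 5 genes and 0% of all tested genes by limma (1957 at an unadjusted p under 0.05, and 1 by limma-voom). Qdpr came closest of the 5, at 0.34 (SE 0.13, limma adjusted p = 0.254).

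The regulator's RNA was set against that of its enzyme. The ratio of Gchfr to Gch1 FPKM was 5.88, 5.77, 6.97, 7.16 and 5.42 in the Combination libraries and 4.51, 5.01, 4.99, 5.66 and 3.94 in the Plerixafor libraries. It was 0.267, 0.391, 0.190, 1.05 and 0.287 in the anti-PD-1 libraries and 0.249, 0.156, 0.0302, 0.0585 and 0.0811 in the Solution libraries. Gchfr RNA thus exceeded Gch1 RNA in all antagonist-treated libraries and, among the others, in anti-PD-1 library 4. Combination averaged 6.24 ± 0.776 and Plerixafor 4.82 ± 0.641 (SD, n = 5 each). On the log2 scale with 1 FPKM added, Combination was higher by 0.37, although the groups overlapped. The exact two-sided permutation p was 0.0159, and the adjusted p 0.0159 over 2 ratio tests, of which the other is given below without its p. Plerixafor values of Gchfr entered its choice and are used here again, and no other gene pair was tested. By limma, 0% of all tested genes were called between these groups, so nothing is concluded from this p. Anti-PD-1 averaged 0.438 ± 0.352 and Solution 0.115 ± 0.0884 (SD, n = 5 each), a difference of 1.16 on the same scale. It is given with no p, since low Solution values of Gchfr favoured its choice. Leaving out each library in turn gave differences of 0.29 to 0.43 for Combination against Plerixafor and 0.90 to 1.33 for anti-PD-1 against Solution. For Combination against Plerixafor the exact permutation p was then 0.0159 to 0.0317. With 0.1 FPKM added in place of 1, the difference of anti-PD-1 against Solution was 1.82.

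**Figure D3:**
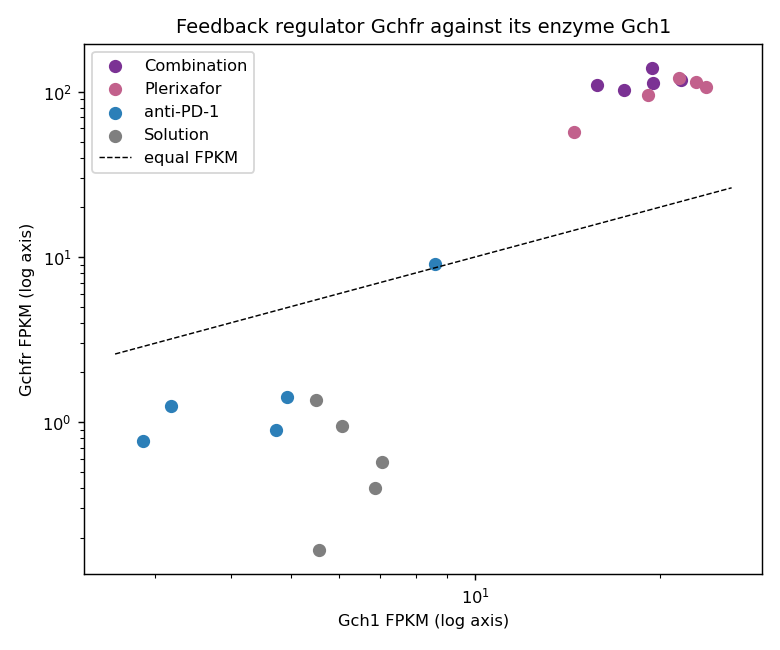
Gchfr FPKM (y axis, log) against Gch1 FPKM (x axis, log), 1 point per library coloured by group, with a dashed line at equal FPKM. The antagonist-treated libraries lie above the line at ratios of 3.94 to 7.16, and anti-PD-1 library 4 lies at the line, at 1.05.

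Within treatment clusters, some of the 5 genes varied with each other and with markers of other cells. The libraries fell into 10 antagonist-treated and 10 antagonist-free libraries, each of them 2 treatment groups, so correlations were computed in each, over log2(FPKM + 1), for 50 relations in all: each gene with macrophage, fibroblast and skeletal muscle marker levels, and each pair of genes. The permutations mixed the 2 groups of a cluster, so r, rho and p also carry any difference between those groups. Of 25 relations, 9 passed an adjusted permutation p of 0.05 by Pearson's r in the antagonist-treated libraries and 5 in the antagonist-free ones, and 4 and 1 did so by Spearman's rho. Over all 50, median-of-ratios scaling left 6 by Pearson's r and 0 by rho, for which the lowest adjusted permutation p was then 0.0720, so none of the calls by rho below holds under that scaling.

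Among the antagonist-treated libraries, Gch1 was lower and Pts higher where macrophage and fibroblast markers were higher. For Gch1 with macrophage markers, r was -0.86 (permutation p = 0.00125, adjusted p = 0.0112) and rho -0.85 (permutation p = 0.00301, adjusted p = 0.0464), and r was -0.83 without the 2 libraries farthest from the median marker level. For Pts with macrophage markers, r was 0.87 (permutation p = 0.00092, adjusted p = 0.0112) and rho 0.83 (permutation p = 0.00492, adjusted p = 0.0492), and r was 0.70 without the 2 farthest. With fibroblast markers, Pts had r = 0.91 (permutation p = 0.00022, adjusted p = 0.0110), rho = 0.85 (permutation p = 0.00273, adjusted p = 0.0464) and r = 0.81 without the 2 farthest. Gch1 with fibroblast markers had r = -0.84 (permutation p = 0.00281, adjusted p = 0.0201), rho = -0.79 (permutation p = 0.00889, adjusted p = 0.0635) and r = -0.80 without the 2 farthest. Spr and Qdpr were high in the same libraries, with r = 0.88 (permutation p = 0.00062, adjusted p = 0.0112), rho = 0.90 (permutation p = 0.00085, adjusted p = 0.0425) and r = 0.80 without the 2 farthest. Gchfr with Spr gave r = 0.86 (permutation p = 0.0045, adjusted p = 0.0244) and rho = 0.70 (permutation p = 0.0300, adjusted p = 0.125), but r was 0.41 without the 2 farthest, so this relation rests on those libraries. Plerixafor library 5 had the lowest Gchfr of these 10 libraries, the highest Pts and the highest macrophage markers. Every Solution library had a higher mean log2 level of macrophage markers (8.55 or more) than every anti-PD-1 library (8.52 or less). Mean Pts and Gch1 were also higher in Solution than in anti-PD-1, and mean Spr lower. The difference between these groups therefore enters the relations that follow. In the antagonist-free libraries, Pts was higher where macrophage markers were higher (r = 0.75, permutation p = 0.00135, adjusted p = 0.0112; rho = 0.84, permutation p = 0.00371, adjusted p = 0.0464; r = 0.63 without the 2 farthest). Gch1 with the same markers had r = 0.75 (permutation p = 0.00488, adjusted p = 0.0244) and rho = 0.70 (permutation p = 0.0301, adjusted p = 0.125), with r = 0.70 without the 2 farthest. Spr with macrophage markers had r = -0.81 (permutation p = 0.00407, adjusted p = 0.0244) and rho = -0.56 (permutation p = 0.0970, adjusted p = 0.255), but r was -0.26 without the 2 farthest, so it rests on those libraries. After median-of-ratios scaling r was 0.20 for Pts, 0.54 for Gch1 and -0.91 for Spr, and none of these passed (adjusted permutation p = 0.773, 0.256 and 0.0537). Spr with fibroblast markers had r = -0.80 (permutation p = 0.00134, adjusted p = 0.0112), and -0.74 without the 2 farthest. Its rho was -0.81 (permutation p = 0.00738, adjusted p = 0.0615). Gch1 with skeletal muscle markers had r = -0.78 (permutation p = 0.00661, adjusted p = 0.0275), and -0.75 without the 2 farthest. Here rho was -0.77 (permutation p = 0.0122, adjusted p = 0.0677). That scaling gave r = -0.89 and -0.71, and neither passed (adjusted permutation p = 0.0537 and 0.0817).

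Other genes around BH4 were counted on lists that hold none of the 5. Of the 35 genes present, 30 were tested. Among those 30, Pcbd1 and Agmo passed the filter on low values only through the antagonist-free libraries, where they were high. They stand among the lower calls counted below and are described with no p. In Combination against Solution 11 were higher and 12 lower (background 42% higher and 34.1% lower), and in Plerixafor against Solution 10 were higher and 11 lower (42.3% and 33.2%). The lists' median log2 fold change was -0.37 in the first and -0.26 in the second, against 0.10 and 0.13 over all tested genes. In anti-PD-1 against Solution 1 was higher and 2 lower (8.38% and 3.08%), in Combination against anti-PD-1 14 were higher and 6 lower (43.7% and 30.9%), and in Combination against Plerixafor 0 of 30 were called by limma (60 of all tested genes at an unadjusted p under 0.05, and 0 by limma-voom).

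In recycling and salvage, the carbonyl reductases fell. Cbr1, a carbonyl reductase that can act on sepiapterin, had 4.19 ± 1.74 FPKM in Combination and 4.27 ± 2.98 in Plerixafor against 23.8 ± 3.64 in Solution (SD, n = 5 each), with log2 fold changes of -2.33 (limma adjusted p = 6.02e-07) and -2.37 (limma adjusted p = 4.90e-07). Its relative Cbr3 fell as well, by 2.14 and 2.33 on the log2 scale. Pcbd1, the carbinolamine dehydratase that precedes Qdpr in recycling, averaged 0.271 FPKM in Combination (1 to 7 reads per library) and 0.370 in Plerixafor (2 to 14 reads), against 1.26 in Solution (16 to 26 reads). Its log2 fold changes of -0.84 and -0.75 are understated by the pseudocount of 1. Of the 6 tested genes of this list, 3 were higher and 3 lower in Combination, and 2 higher and 3 lower in Plerixafor. The shares of all tested genes were 42% higher and 34.1% lower in Combination, and 42.3% and 33.2% in Plerixafor.

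Genes that supply GTP, the substrate of GTP cyclohydrolase, were higher in 5 of 7 cases in both antagonist groups against Solution and in 7 of 7 in Combination against anti-PD-1, with medians of 1.08, 0.93 and 1.11. Of all tested genes, 42% were called as higher in Combination against Solution, 42.3% in Plerixafor against Solution and 43.7% in Combination against anti-PD-1. Impdh2, the dehydrogenase that commits purines to GTP, had 178 ± 12.4 FPKM in Combination and 174 ± 33.0 in Plerixafor against 27.3 ± 2.96 in Solution (SD, n = 5 each), log2 fold changes of 2.66 (limma adjusted p = 1.19e-11) and 2.61 (limma adjusted p = 1.44e-11). Gmps, which makes GMP, rose by 2.13 and 2.05, and the nucleoside diphosphate kinases Nme1 (1.16 and 0.93) and Nme2 (1.08 and 0.93) by less. Proliferation markers moved with them, 8 of 8 higher in both comparisons, and their part was not tested.

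Among 8 BH4-dependent enzymes listed, 3 were tested, and 2 were called as lower in each antagonist group against Solution. Of all tested genes, 34.1% were called as lower in Combination and 33.2% in Plerixafor. Of the 2 enzymes, Agmo passed the filter only through the antagonist-free libraries, where it was high, so nothing is read from the count. Agmo, alkylglycerol monooxygenase, had 0.809 ± 0.515 FPKM in Combination and 0.769 ± 0.735 in Plerixafor against 4.99 ± 1.68 in Solution (SD, n = 5 each), log2 fold changes of -1.74 and -1.80. Nos2, the inducible nitric oxide synthase, had 10.2 ± 7.45 FPKM in Combination and 21.5 ± 26.5 in Plerixafor against 50.3 ± 18.1 in Solution (SD, n = 5 each), log2 fold changes of -2.48 (limma adjusted p = 0.0154) and -2.004 (limma adjusted p = 0.0452). The antagonist-free anti-PD-1 libraries had 22.9 ± 26.5 FPKM (SD, n = 5), at -1.84 against Solution (limma adjusted p = 0.145). Nos2 was not called in Combination against anti-PD-1 (-0.64, limma adjusted p = 0.515). Nos3, the endothelial synthase, was called in anti-PD-1 against Solution (0.72, limma adjusted p = 0.0197) and, as lower, in Combination against anti-PD-1 (-0.83, limma adjusted p = 0.000413). Endothelial markers were higher in 3 of 6 and lower in 6 of 6 cases in those comparisons (8.38% and 30.9% of all tested genes).

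Around arginine, the substrate of nitric oxide synthase, the cationic amino acid transporter Slc7a1 rose to 63.5 ± 10.1 FPKM in Combination and 62.0 ± 12.9 in Plerixafor, against 4.05 ± 0.156 in Solution (SD, n = 5 each), log2 fold changes of 3.66 (limma adjusted p = 2.65e-10) and 3.61 (limma adjusted p = 3.39e-10). Ddah1 (2.41 and 2.18), which degrades methylated arginine inhibitors of nitric oxide synthase, and the argininosuccinate lyase gene Asl (0.81 and 0.70) rose, and the arginase gene Arg2 fell by 2.46 and 2.54 on the log2 scale. Of the 8 genes of this list 3 were higher and 4 lower in each antagonist group against Solution. Of all tested genes, 42% were called as higher and 34.1% as lower in Combination, and 42.3% and 33.2% in Plerixafor. In anti-PD-1 against Solution, Arg2 (-1.56, limma adjusted p = 0.0249) and the transporter gene Slc7a2 (-1.64, limma adjusted p = 0.0426) were the 2 called as lower, the second of them named after its values were seen. Among genes of signals that induce Gch1, 0 of 6 were called as higher in either antagonist group against Solution. As lower, 3 of 6 were called in Combination and 2 of 6 in Plerixafor, beside the same shares of all tested genes. Nfkb1 was at 0.31 in Combination and 0.41 in Plerixafor, not called (limma adjusted p = 0.154 and 0.0614). Ifng (-1.26 and -1.10) and Tnf (-1.22 and -1.36) fell in both. T cell markers were lower in 8 of 8 cases in both comparisons (34.1% and 33.2% of all tested genes), and their part was not tested. Nfkb1 passed in Combination against anti-PD-1, at 0.85 (limma adjusted p = 0.000578). In that comparison Ifng (-0.36, limma adjusted p = 0.508) and Tnf (-0.55, limma adjusted p = 0.300) were not called.

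**Figure D4:**
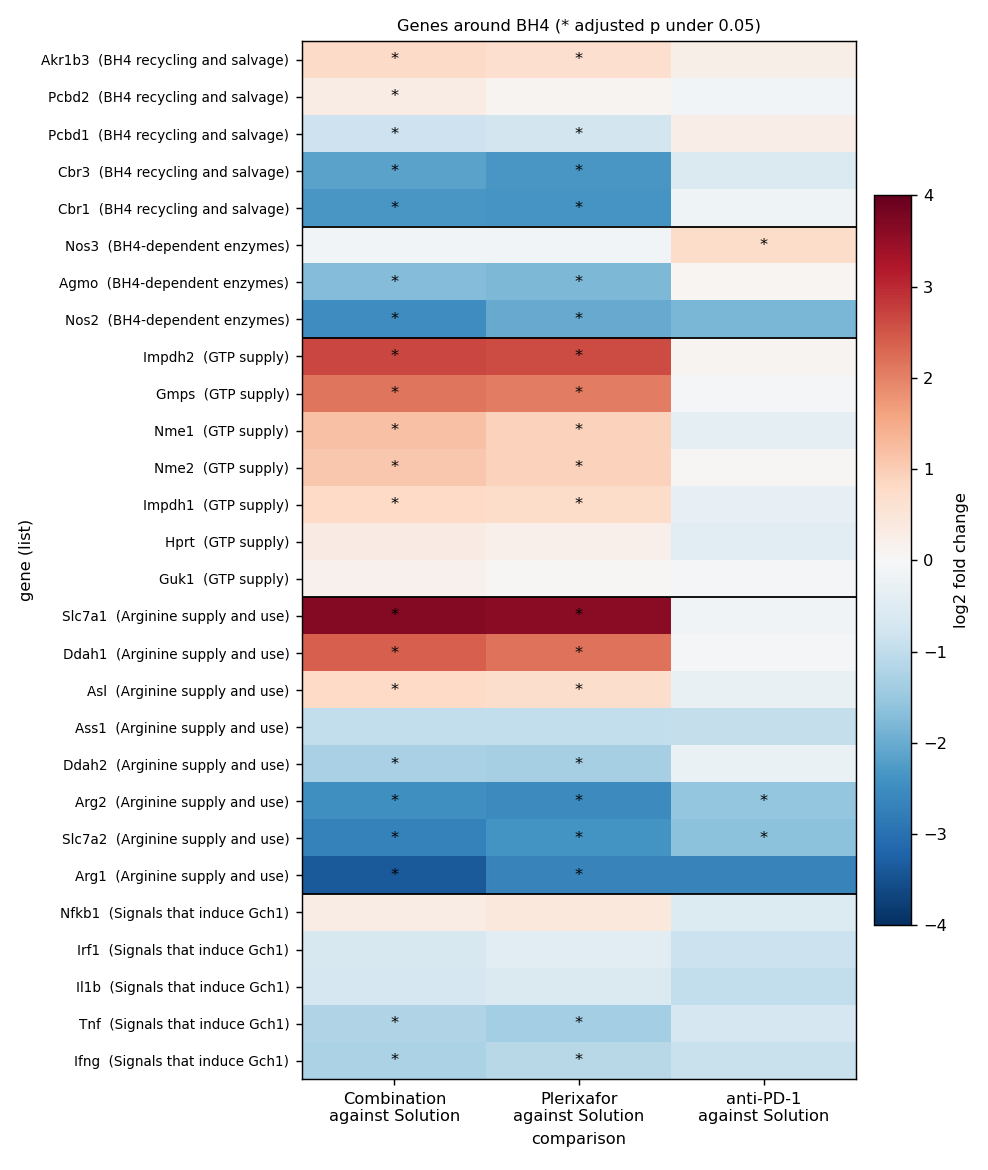
Log2 fold changes (colour, red higher and blue lower in the treated group) of 28 genes around BH4 in 3 comparisons with Solution, grouped by list, with a star where the limma adjusted p is under 0.05. The starred GTP supply genes, 5 in each antagonist column, are red, and the tested BH4-dependent enzymes Agmo and Nos2 are blue in both antagonist columns, and 3 genes are starred under anti-PD-1. Nos2 is also blue under anti-PD-1 (-1.84), without a star.

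The genes whose profile over the 20 libraries was nearest that of Gchfr, by the root mean square difference of log2(FPKM + 1) after centring each gene, were Pitx1 (0.28), Dcaf8l (0.32), Tex11 (0.35), Slc2a3 (0.39), Rhox2h (0.42), Cox7b2 (0.45), Bmp4 (0.49), Sox2 (0.50), Cldn6 (0.51) and Hmga1b (0.54). Rhox2h and Hmga1b belong to families with near-identical copies, so their own levels are uncertain. The 4 enzymes were far from it, with Gch1 at 2.05, Qdpr at 2.47, Spr at 2.64 and Pts at 3.29. Pitx1, a homeobox transcription factor gene, had 65.7 ± 5.80 FPKM in Combination, 61.0 ± 13.5 in Plerixafor, 1.79 ± 2.45 in anti-PD-1 and 0.0952 ± 0.0636 in Solution (SD, n = 5 each). Each of the 10 genes had its highest antagonist-free value in anti-PD-1 library 4, as Gchfr did. There Gchfr stood at 8.12% of its median in the antagonist-treated libraries and the 10 genes at 6.25 to 11.5%, while in the other 9 antagonist-free libraries Gchfr reached 1.27% at most and the 10 genes at most 3.74%. That library also had the highest proliferation markers of its group, 90.8 FPKM in sum. These genes were picked for likeness on the same values, so the sharing is a description.

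**Figure D5:**
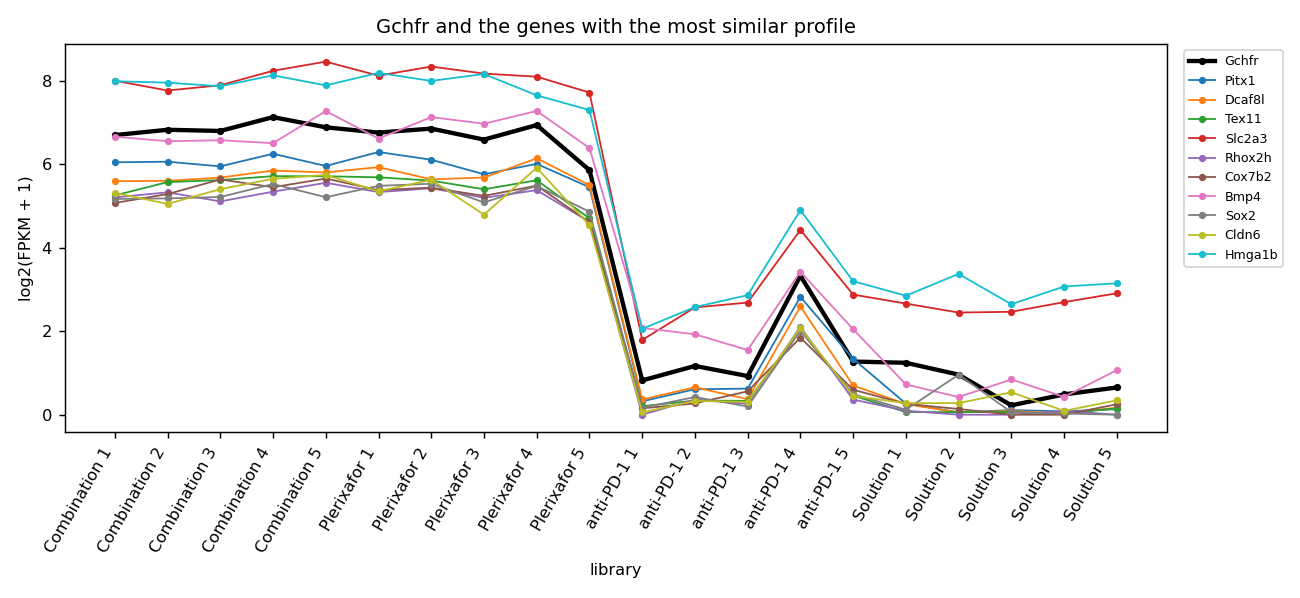
Level on the log2(FPKM + 1) scale (y axis) of Gchfr (thick black line) and the 10 genes nearest to it in each of the 20 libraries (x axis, by group). All lines are high in Combination and Plerixafor, dip at Plerixafor library 5, where Gchfr had 57.1 FPKM, and peak among the antagonist-free libraries at anti-PD-1 library 4, where it had 9.06.

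The genes next to Gchfr in the GRCm38.p6 gene table differed by less. Dnajc17, its closer neighbour, had 7.58 ± 0.841 FPKM in Combination, 6.64 ± 0.540 in Plerixafor, 4.53 ± 0.526 in anti-PD-1 and 5.52 ± 0.907 in Solution (SD, n = 5 each), log2 fold changes of 0.40 (limma adjusted p = 0.00127) and 0.23 (limma adjusted p = 0.0384) against Solution for Combination and Plerixafor. Rmdn3 on the other side had 27.6 ± 1.81, 28.03 ± 3.15, 12.0 ± 5.24 and 16.4 ± 2.19 FPKM in the same order of groups, log2 fold changes of 0.72 (limma adjusted p = 0.00630) and 0.74 (limma adjusted p = 0.00547). Neither gene overlaps Gchfr in that table. Of the other neighbours in the expression table, Wdhd1, a replication-associated gene beside Gch1, had 9.70 ± 1.04 FPKM in Combination, 10.3 ± 1.57 in Plerixafor, 1.48 ± 0.629 in anti-PD-1 and 1.88 ± 0.0829 in Solution (SD, n = 5 each), log2 fold changes of 1.89 (limma adjusted p = 3.75e-09) for Combination and 1.96 (limma adjusted p = 2.53e-09) for Plerixafor, each against Solution. Beside Pts, Plet1 fell in the same comparisons (-1.19, limma adjusted p = 0.0151, and -1.69, limma adjusted p = 0.00131). Bco2, on the other side, passed the filter only through the antagonist-free libraries, and averaged 0.530 FPKM in Combination, 0.448 in Plerixafor, 1.26 in anti-PD-1 and 1.46 in Solution. The table also places a pseudogene, Gm18811, within Gch1.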

How the data were processed

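RNA of 20 U14 tumour libraries, 5 per group by their labels, was made into stranded mRNA libraries and sequenced, per the labels' protocols. The authors deposited a table of FPKM values with 18722 genes by symbol. StringTie 2.1.4, HISAT2 2.1.0, DESeq2 1.28.1, HTSeq 0.11.2 and the build GRCm39 are named in the submitters' processing notes; their roles, and whether counting used strand, are not given in the sources used here, so overlapping genes could share reads. Within a gene, FPKM values were whole multiples of 1 step to within 0.02 for 18722 genes, which gave back the reads. No library repeated another of its own group: over the 40 within-group pairs, the lowest median chi-square of a gene's counts was 1.91. Pairs from different groups were not checked.

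Genes with at least 1 FPKM in at least 5 libraries were fitted with limma 3.58.1 (R 4.3.3, trended empirical Bayes, log2(FPKM + 1), all 20 libraries, threshold 0.05). The fit was tested on simulated data. Ratios used exact permutation (252 assignments), and correlations 100000 permutations (scipy 1.17.1). The 5 genes, the lists and the comparisons were chosen with earlier results of these data known. Of each list, up to 4 genes with the smallest p were named, with the 10 genes nearest to Gchfr in profile, leaving out Gm and Rik models, and the neighbours of the 5 genes. Some genes of the lists are counted but not reported here by name. Alternatives were a pseudocount of 0.1, no filter, median-of-ratios scaling, TPM, a fit of the compared groups only, the replicate number as a block, limma-voom and leaving out each library; leaving out anti-PD-1 libraries 1, 2 and 5 together was chosen after seeing the data.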

Additional observations from a re-analysis of the deposited data

Results flagged for a closer look

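Within groups, 3 values lay far from the rest of their group, of 24 sets of 5 libraries looked at; chance gives about 1 in 20. Gchfr had 9.06 FPKM in anti-PD-1 library 4, while the other anti-PD-1 libraries had at most 1.42. The ratio of Gchfr to Gch1 in that library was 1.05, and at most 0.391 in the other anti-PD-1 libraries. Pts had 10.8 FPKM in Plerixafor library 5, while the other Plerixafor libraries had at most 7.41.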

How the results depend on the processing

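The fold changes of the 5 genes kept their direction in all comparisons of antagonist with antagonist-free groups, under every setting run. Gchfr moved most: with a pseudocount of 0.1 its log2 fold change was 7.43 in Combination against Solution, 7.16 in Plerixafor against Solution and 6.05 in Combination against anti-PD-1; by limma-voom 7.59, 7.32 and 6.07; by TPM 6.52 in Plerixafor against Solution; and without anti-PD-1 libraries 1, 2 and 5 it was 4.74 in Combination against anti-PD-1. Leaving out each library gave 6.03 to 6.29, 5.77 to 6.07 and 5.19 to 5.82 in those 3 comparisons.

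Near 0, signs turned. The Spr interaction of -0.03 ran from -0.098 to 0.035 when each library was left out, above 0 without Plerixafor library 1 or 2, anti-PD-1 library 1 or 5, or Solution library 4, and was 0.13 without anti-PD-1 libraries 1, 2 and 5. Without those 3 libraries Gch1 was at 0.048 in anti-PD-1 against Solution and at -0.15 in the interaction. The cause was not tested.

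Counts of calls under anti-PD-1 alone were unstable. Leaving out each library gave 0 to 1 of the 5 genes (1 without anti-PD-1 library 4) and 0 to 10 of the 30 pathway genes in place of 3: 1, 10 and 0 when anti-PD-1 library 2, 4 or 5 was dropped, and 1 without Solution library 2, 3 or 5. It was 1 with a pseudocount of 0.1, 0 with only the compared groups and 0 without anti-PD-1 libraries 1, 2 and 5. Over all tested genes 1454 became 544, 2427, 4112 and 2 when anti-PD-1 library 2, 3, 4 or 5 was dropped, 779, 789, 779 and 582 without Solution library 2, 3, 4 or 5, 0 with only the compared groups, 767 by limma-voom and 1 without the 3 libraries. The interaction, with 0 calls over all tested genes, had 1007 without anti-PD-1 library 4, 2 without its library 3 and 1 by limma-voom. Leaving out each library gave 18 to 25 pathway genes in Combination against Solution, 19 to 23 in Plerixafor against Solution, 20 to 24 in Combination against anti-PD-1, and 0 in Combination against Plerixafor.

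Median-of-ratios scaling left 6 of 14 correlations past the threshold. Deviations of same-numbered libraries from their group means had correlations of -0.75 to 0.51 over 30 pairs, 7 of them above 0.1. Differently numbered libraries were not compared, so this does not settle whether the numbers pair the libraries. With the replicate number as a block, 22 pathway genes were called in Combination against Solution and 20 in Plerixafor against Solution. There were 2 in anti-PD-1 against Solution, 0 in Combination against Plerixafor and 20 in Combination against anti-PD-1. Of the 5 genes, 0 were called in each tested comparison. Gchfr rests on 2 to 16 reads per Solution library, and small differences there were not detectable at this depth.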

Other observations

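The BH4-dependent enzymes outside the test were mostly near 0. Nos1, the neuronal nitric oxide synthase, which skeletal muscle also expresses, had 19.6, 1.51, 1.04, 0.052 and 4.07 FPKM in the anti-PD-1 libraries 1 to 5, and at most 0.118 in Combination, 0.166 in Plerixafor and 0.496 in Solution libraries. The order of those anti-PD-1 libraries from low to high was library 4, 3, 2, 5 and 1, the same order as their share of skeletal muscle genes. Th, the tyrosine hydroxylase of catecholamine synthesis, had 0.779, 0.629 and 0.625 FPKM in anti-PD-1 libraries 1, 2 and 5 on 20 to 23 reads, and 0 or 1 read in each of the other libraries. Tph2 had at most 3 reads in any library. Tph1, the peripheral tryptophan hydroxylase, had 0.704 ± 0.212 FPKM in Combination, 0.552 ± 0.256 in Plerixafor, 0.491 ± 0.317 in anti-PD-1 and 0.633 ± 0.381 in Solution (SD, n = 5 each), differences within the spread between libraries.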
